A study of Mus musculus with 96 samples.

Results

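The 7 genes described here encode the peptides of the CGRP family (calcitonin gene-related peptide) and the subunits of their receptors. They were taken as the rows of the expression table whose Ensembl identifiers carry the symbols Calca, Calcb, Adm, Calcrl, Ramp1, Ramp2 and Ramp3, 7 of 38887 genes. The values come from Patch-seq in the lateral superior olive (LSO), a nucleus of the auditory brainstem: the cytoplasm of single neurons was aspirated through the patch pipette after recording in acute slices, and each neuron gave 1 library. The slices came from untreated C57BL/6J mice of both sexes in the second postnatal week, and the classes follow the firing pattern recorded in each neuron. Delayed firing marks lateral olivocochlear neurons (LOCs), which project to the cochlea, whereas Onset and Sustained firing mark principal neurons (pLSOs), which compare sound levels between the ears. A negative control was a pipette that touched the slice without harvesting a neuron.

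CGRP is a neuropeptide of sensory neurons, motoneurons and olivocochlear efferents and a strong vasodilator. The gene Calca gives 2 kinds of transcript by alternative splicing, one for calcitonin and one for the alpha form of CGRP, and the neighbouring paralog Calcb encodes the beta form. Adm encodes adrenomedullin, a related peptide best known from blood vessels. Their common receptor is built around Calcrl, a G protein-coupled receptor that needs a partner of the RAMP family: with RAMP1 it binds CGRP, with RAMP2 or RAMP3 it binds adrenomedullin. The receptor acts through the stimulatory G protein and cyclic AMP.

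Of 96 labelled libraries, 88 were used, namely 28 LOCs, 41 Onset and 11 Sustained pLSOs (52 pLSOs together) and 8 negative controls. The other 8 (6 neurons and 2 controls) were left out by the rule that defined the gene set. The names of 5 of them (NC5, NC6, cell_36, cell_39 and cell_40) differ from the study's supplement, cell_54 is labelled Sustained but holds Calca and Ucn, and cell_78 and cell_85, labelled as LOCs, hold LOC genes. Main results are also given with all libraries as labelled. Neurons had a median of 2394 detected genes in LOCs (range 1175 to 4408), 2488 in Onset neurons (1333 to 4022) and 2618 in Sustained neurons (1969 to 6276), whereas the negative controls had 821 (285 to 1271). Detection means 1 TPM or more, TPM being read numbers set against gene length and library total. The markers went with the labels: 9 of 11 LOC marker genes were higher in LOCs by 2 or more on the log2 scale, 4 of 8 pLSO marker genes were lower by as much, and no marker of either list went the other way by that amount. Most of these markers were reported by the study as differing between the classes in these same neurons. They are therefore no independent check of the labels. Oligodendrocyte genes were present in the controls, with a summed level of 389 to 7794 TPM, compared with 1 to 5083 TPM in LOCs, 0 to 6658 TPM in Onset and 0 to 1453 TPM in Sustained neurons. No gene of the lists for oligodendrocytes, astrocytes or microglia (5 each) differed between LOCs and pLSOs by 2 or more; the summed astrocyte level had a median of 3.5 TPM in LOCs and 1, 5 and 0 TPM in Onset neurons, Sustained neurons and controls, and the summed microglia level 7.5, 1, 145 and 0 TPM. Because the labels name no animals, each class counts as 1 sample. All comparisons are therefore descriptions without a test, SDs give the spread over neurons, and exact Clopper-Pearson 95% intervals of shares cover counting error only. Where a gene was detected in none of n libraries, the share that this allows is given as 3 over n.

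Calca and Calcb lie on chromosome 7 (GRCm38, Gencode vM21), Calca at 114631478-114636357 on the minus strand and Calcb at 114718643-114723365 on the plus strand. The exon that encodes the mature peptide is exon 4 in the CGRP transcript of Calca (994 bases in 5 exons) and exon 4 in that of Calcb (962 bases in 5 exons). Its coding sequence is shown because the paralogs were most alike there among their 3 coding exons: without gaps, 55.8% of the bases compared were identical in exon 2, 55.8% in exon 3 and 89.2% in exon 4. The stretches, 157 bases each, are from chr7:114632443-114632599 (minus strand) and chr7:114721975-114722131 (plus strand), and capitals mark the bases that differ when they are set side by side without gaps.
Calca: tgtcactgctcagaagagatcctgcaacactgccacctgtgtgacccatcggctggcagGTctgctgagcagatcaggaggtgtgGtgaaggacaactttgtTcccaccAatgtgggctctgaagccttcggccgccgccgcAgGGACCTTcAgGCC
Calcb: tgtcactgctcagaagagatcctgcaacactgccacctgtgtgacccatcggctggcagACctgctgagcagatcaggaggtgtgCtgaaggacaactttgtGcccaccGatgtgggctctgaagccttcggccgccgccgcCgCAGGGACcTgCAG
They were identical at 140 of 157 positions, with 17 differences, most of them at the 3′ end. The coding part of exon 4 has 157 bases in Calca and 160 in Calcb. Without gaps, a difference in length puts the bases after it out of register, so the differences at the 3′ end need not be single base changes. No comparison with gaps was made. The longest identical run of the whole transcripts was 60 bases, inside the coding sequence. None of the 907 windows of 88 bases, the length of the reads, in the Calca transcript occurred in Calcb, and none of the 875 windows of Calcb occurred in Calca, with 3 differences at the fewest. Full-length reads could therefore be told apart, but reads trimmed to within the shared run could not, and their part in the values was not tested. The values are per gene: 250 of the 907 Calca windows also occur in the calcitonin transcript (830 bases in 4 exons), and CGRP and calcitonin transcripts are not separated.

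Calca was the gene that differed most between the neuron classes. It was detected in 26 of 28 LOCs (92.9%, 95% interval 76.5 to 99.1%) with a mean of 1174 ± 964 TPM (SD, n = 28). In the 26 LOCs with Calca, the values ran from 170 to 4484 TPM, with a median of 971 TPM. In Onset neurons it was listed in 12 of 41 (29.3%, 16.1 to 45.5%), and 8 of these held 1 TPM while the others held 14, 5, 3 and 2 TPM. In Sustained neurons it was listed in 3 of 11 (27.3%, 6.02 to 61.0%), at 58, 43 and 2 TPM. The lowest LOC with Calca thus lay above the highest pLSO, and only the 2 LOCs at 0 overlapped the pLSOs. Among 110 genes detected in at least as many LOCs as Calca, Calca was the only one with this gap (0.909%). Both the limit and the pattern were taken from Calca, so this is a description and no test. The gap depends on leaving out cell_54, labelled Sustained, whose 1887 TPM lay above 22 of the 26 LOCs with Calca. With all libraries as labelled, none of 102 such genes had a gap.

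The difference of mean log2(TPM + 1), LOC minus pLSO, was 8.63 for Calca, compared with a median of -0.07 over all genes. Of 10319 genes detected in at least 4 of 80 neurons, 110 (1.07%) were higher in LOCs by 2 or more and 146 (1.41%) were lower, and none had a larger difference than Calca. Of the 7 genes of the family, 6 passed this filter, and 2 of them, Calca and Calcb, were higher in LOCs by 2 or more. With all libraries as labelled, the Calca difference was 8.42.

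Calca was also present where no neuron was harvested. Of 8 negative controls, 5 listed it, at 315, 83, 6, 6 and 5 TPM, which gives 62.5% (24.5 to 91.5%) and a mean of 51.9 ± 110 TPM (SD, n = 8). The highest control exceeded every pLSO and 2 of the 26 LOCs with Calca. All pLSO values lay within the range of the controls, also without the highest control, since the next held 83 TPM and the highest pLSO 58 TPM. Whether material from outside the cell contributed to Calca in pLSOs was not tested. At a detection limit of 10 TPM, 5.77% of pLSOs still listed Calca.

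**Figure D1:**
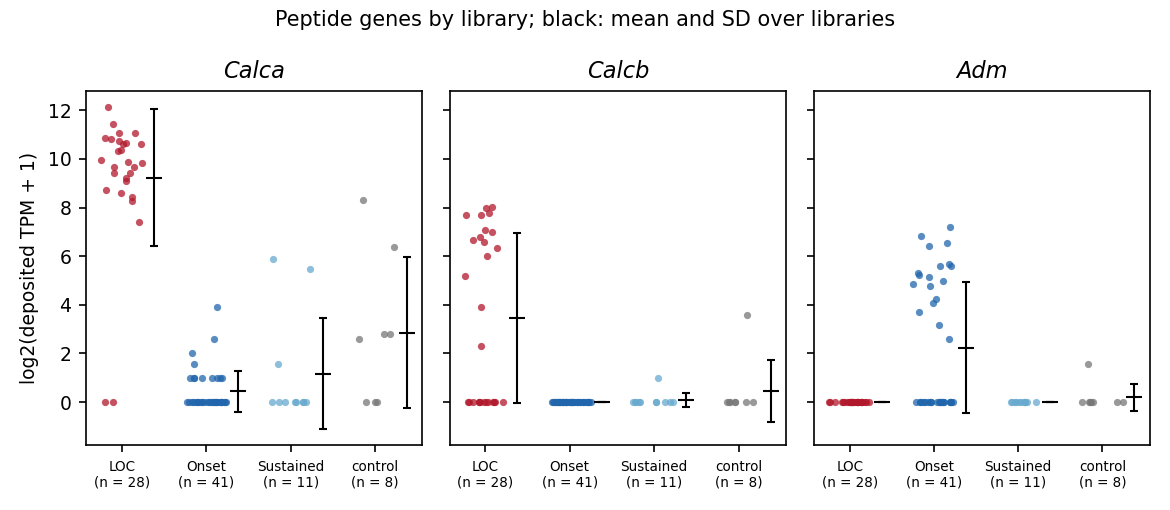
Values of Calca, Calcb and Adm in each of 88 libraries, as log2(deposited TPM + 1), by class; each point is 1 library, and the black bar gives the mean and SD over libraries. The 26 LOCs with Calca lie above all pLSOs, Calcb is present in 15 of 28 LOCs, and Adm is present in 18 of 41 Onset neurons and in no LOC and no Sustained neuron.

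The 2 LOCs at 0 for Calca were also poor in other LOC genes. They held 2 of 11 LOC marker genes each, whereas the 26 LOCs with Calca held 3 to 10 (median 7). Both lacked Ucn, the urocortin gene, and Isl1, a motoneuron transcription factor. One (cell_57) held Gata3, a transcription factor of efferent neurons, at 903 TPM. The other (cell_76) held Gata3 at 2 TPM and 307 TPM of Slc17a6, a vesicular glutamate transporter found mainly in pLSOs here. Of 8 pLSO marker genes, cell_57 held 3 and cell_76 held 2, within the range of the 26 LOCs with Calca (0 to 3, median 2). Their libraries had 3264 and 3111 detected genes, above the LOC median, and Spp1, the pLSO marker with the largest difference, was at 0 in both.

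Calcb was detected in 15 of 28 LOCs (53.6%, 33.9 to 72.5%), with a mean of 67.9 ± 88.1 TPM (SD, n = 28). In these 15 LOCs, the values were between 4 and 260 TPM with a median of 109 TPM. It was at 0 in all 41 Onset neurons, which allows a share of up to 7.32%, and at 1 TPM in 1 of 11 Sustained neurons. In the controls, 1 of 8 listed it, at 11 TPM, and this was the control with the most Calca. The mean log2(TPM + 1) of Calcb was higher in LOCs by 3.45, but by 1.81, under the limit of 2, with a pseudocount of 10. Of 1138 genes detected in at least 15 LOCs, 7 (0.615%) were detected in at most 1 pLSO, and Calcb was one of them, beside Ucn, Isl1, Uts2b, Fxyd6, Col4a4 and Col4a3 (named after their values were seen). The limits of 15 LOCs and 1 pLSO are those of Calcb itself, so this too is a description.

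All 15 LOCs with Calcb also held Calca, and 11 LOCs held Calca alone. Since 26 of all 28 LOCs held Calca, this overlap lies near the share of Calca in the class. The 2 genes stand in adjacent rows of the table, where the running median of detected genes, used below as the scale of a row, is nearly equal. Adjacent rows share most genes behind that median, so this likeness cannot show that the 2 genes have the same scale. The values are set side by side within a neuron as a description. Calcb made up 0.400 to 18.8% of the summed Calca and Calcb values in the 15 LOCs, with a median of 10.3%. Whether the deposited values already allow for the own length of each gene (1684 and 1264 bases of exon) was not tested. On the level rescaled per length described below for all genes, the shares were 0.544 to 24.0%, with a median of 13.5%. In 9 of the 15 LOCs the share of the deposited values was 8.83 to 13.1%. Calca alone was not limited to LOCs with little Calca: in those 11 neurons it ranged from 170 to 2114 TPM (median 676), compared with 349 to 4484 TPM (median 1322) in the 15 with both. The number of detected genes was also alike, with medians of 2332 and 2124. Over the 28 LOCs, Pearson's r of log2(TPM + 1) between Calca and Calcb was 0.43, which ranked Calcb in place 7 of 2453 genes compared. The 2 LOCs at 0 for both genes can weigh heavily on this r, which was not recomputed without them. All such values over neurons are descriptions and share each neuron's library.

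**Figure D2:**
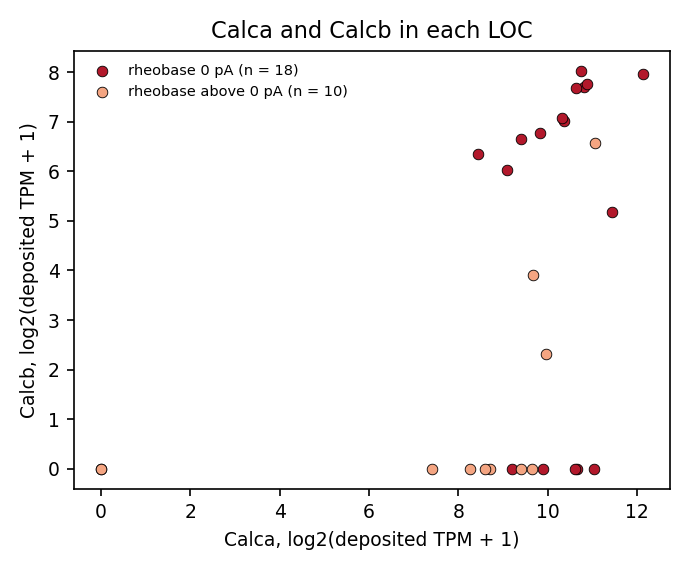
Calca (x axis) against Calcb (y axis) in each of 28 LOCs, both as log2(deposited TPM + 1); the colour gives the rheobase in the labels, 0 pA or above. The 15 LOCs with Calcb all hold Calca, 11 lie on the x axis with Calca alone, and 2 points coincide at 0 for both genes.

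The LOCs could also be divided by a label that does not come from the libraries, the rheobase, which is the current needed to evoke an action potential. It was 0 pA in 18 LOCs, 50 pA in 9 and 300 pA in 1. Calcb was detected in 12 of the 18 at 0 pA (66.7%, 40.99 to 86.7%) and in 3 of the 10 above 0 pA (30.0%, 6.67 to 65.2%), and these intervals overlap. The median Calcb was 90.5 TPM in the former and 0 TPM in the latter. The median Calca was 1449 TPM in the 18 at 0 pA and 676 TPM in the 9 at 50 pA, where it ranged from 170 to 2155 TPM. Spearman's rho with rheobase was -0.45 for Calca and -0.47 for Calcb (n = 28). Pearson's r was -0.63 for Calca, but -0.12 without the LOC at 300 pA, which had 0 TPM. It thus rests on that neuron. The corresponding values for Calcb were -0.36 and -0.45. Leaving out a further LOC by its distance from the median is not defined, because the next 9 tie at 50 pA. These are among 51 relations computed between Calca, Calcb or Adm and recorded features or the number of detected genes. Others were of like size, so rheobase does not stand out. Spearman's rho of Calcb was 0.48 with action potential halfwidth (n = 28) and 0.47 with resting potential (n = 19). For Calca it was 0.44 with resting potential (n = 19). The LOCs without a resting potential in the labels were all at a rheobase of 0 pA.

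The genes most like Calca over the 28 LOCs, by Pearson's r of log2(TPM + 1) among 2453 genes, were Pam (r = 0.68), Ucn (0.68), Gnas (0.63), Acly (0.53) and Anxa2 (0.50). Pam encodes the enzyme that amidates the C-terminus of neuropeptides, and Gnas encodes the stimulatory G protein alpha subunit. For Calcb they were Mcee (0.62), Ggnbp2 (0.52), Crem (0.51), Igfbp5 (0.51) and Gm20721 (0.51). Crem encodes a transcription factor that binds cyclic AMP response elements, and it was detected in 10 of 28 LOCs compared with 3 of 52 pLSOs. Over all 80 neurons, where the difference between the classes enters, Calca was most like Ucn (0.88), Col4a3 (0.83), Anxa2 (0.82), Isl1 (0.78) and Fxyd6 (0.74), among 3814 genes. The 2 LOCs at 0 for Calca, both also at 0 for Ucn and Calcb, lie far below the 26 LOCs with Calca. They can weigh heavily on the r values of Calca over the 28 LOCs, which were not recomputed without them.

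The promoter of Calca is shown because the cyclic AMP response element is a known feature of this promoter. Crem stood among the 5 genes most like Calcb, not among those most like Calca, and no promoter of Calcb was at hand. A relation of Crem to the promoter of Calca was not tested. RefSeq promoters (GRCm38.p6) were at hand for 5 of the 7 genes, and the 250 bases before the start were searched on both strands for 4 motifs: the half-site of the cyclic AMP response element (TGACG), the core of the hypoxia response element (ACGTG), the E-box (CANNTG) and a homeodomain core (TAATT). The promoter of Calca is at chr7:114636358-114636607 on the minus strand, printed 5′ to 3′, with the half-site in capitals.
Calca promoter: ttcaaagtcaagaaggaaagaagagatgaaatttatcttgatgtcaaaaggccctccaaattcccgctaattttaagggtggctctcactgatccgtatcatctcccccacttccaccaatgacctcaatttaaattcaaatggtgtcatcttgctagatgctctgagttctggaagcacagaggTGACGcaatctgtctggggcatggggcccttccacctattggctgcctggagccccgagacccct
The half-site begins 65 bases before the start, and it was not found in the promoters of Adm, Calcrl, Ramp1 and Ramp3. It occurred in 17.8% of all 32851 promoters. The promoter of Calca also held 1 E-box (66.2% of promoters) and 1 homeodomain core (25.0%), and that of Adm held 1 homeodomain core. The hypoxia core was in none of the 5, and in 16.6% of all. A match of these letters is a description of the sequence.

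Adm showed the reverse arrangement, being present only in Onset neurons among the neurons used. The gene lies at chromosome 7, 110627661-110629820, on the plus strand. It was detected in 18 of 41 Onset neurons (43.9%, 28.5 to 60.3%), with a mean of 20.4 ± 34.4 TPM (SD, n = 41). The 18 values were between 5 and 148 TPM with a median of 35 TPM, and 4 were above 80 TPM (148, 112, 93 and 85). It was at 0 in all 11 Sustained neurons, which allows a share of up to 27.3%, and in all 28 LOCs, which allows up to 10.7%. Of the controls, 1 of 8 listed it, at 2 TPM, below every Onset neuron with Adm. The small number of Sustained neurons sets the limit here, since the share it allows lies close to the lower end of the interval for Onset neurons.

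The mean log2(TPM + 1) of Adm was lower in Sustained than in Onset neurons by 2 or more (difference -2.24), as were 84 of 10319 genes (0.814%). It was likewise lower in LOCs than in Onset neurons (-2.24, as for 1.58% of genes), and against all pLSOs the difference was -1.77. In the other direction, none of the 7 genes was higher in Sustained than in Onset neurons by 2 or more, against 2.27% of all genes, and Calca and Calcb were higher in LOCs than in Onset neurons by as much (8.78 and 3.46), against 1.2% of all genes. Of 1800 genes detected in at least 18 Onset neurons, Adm was the only one at 0 in every Sustained neuron (0.0556%), and 5 (0.278%) were at 0 in every LOC. With all libraries as labelled, it was detected in 19 of 44 Onset neurons and in none of 12 Sustained neurons and 30 LOCs. It was then again the only gene, of 1718, at 0 in both other classes. The limits of 18 and 19 Onset neurons are the counts of Adm itself, and the pattern was taken from Adm. These counts are therefore a description and no test of how rare the pattern is. In 3 Onset neurons the deposited name differs from the name in the study's supplement, and without them 17 of 38 held Adm.

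Within Onset neurons, Adm followed none of the recorded features closely. Over the 38 neurons with unambiguous names, Spearman's rho lay between -0.32 (resting potential) and 0.26 (sag amplitude), and it was 0.16 with the number of detected genes. The genes most like Adm over the 41 Onset neurons, looked up after its values were seen, were Nr1d1 (r = 0.52), a clock repressor, Tnik (0.50), Pcdh11x (0.48), Polr1c (0.48) and Lonrf1 (0.47), among 3991 genes.

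Adrenomedullin is a product of endothelial cells, and vessel genes were therefore counted beside it. Of 18 endothelial and mural genes, the 18 neurons with Adm held 0 to 3 (median 0), the same range and median as all 80 neurons. Of the 12 endothelial genes, 5 (Cdh5, Tie1, Kdr, Emcn and Ly6c1) were at 0 in all neurons, and Cldn5 was at 0 in all but 1. The 2 that passed the filter were Pecam1, in 15 of 80 neurons (5 LOCs, 7 Onset and 3 Sustained) and 2 controls, and Egfl7, in 4 LOCs only. The summed endothelial level was 0 to 799 TPM in Onset neurons, 0 to 3 in Sustained neurons, 0 to 533 in LOCs and 0 to 78 in the controls, with a median of 0 in each. The mural sum was 0 to 70 TPM in Onset neurons, 0 to 6 in Sustained neurons and 0 in LOCs and controls. Among the glial lists, 1 gene differed between Sustained and Onset neurons by 2 or more: the microglia gene Aif1 was higher in Sustained neurons by 3.47 (7 of 11 and 9 of 41). Of the other microglia genes, C1qa differed by 1.39 and P2ry12 by 1.06. The part of microglial RNA in the difference of Adm was not tested.

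**Figure D3:**
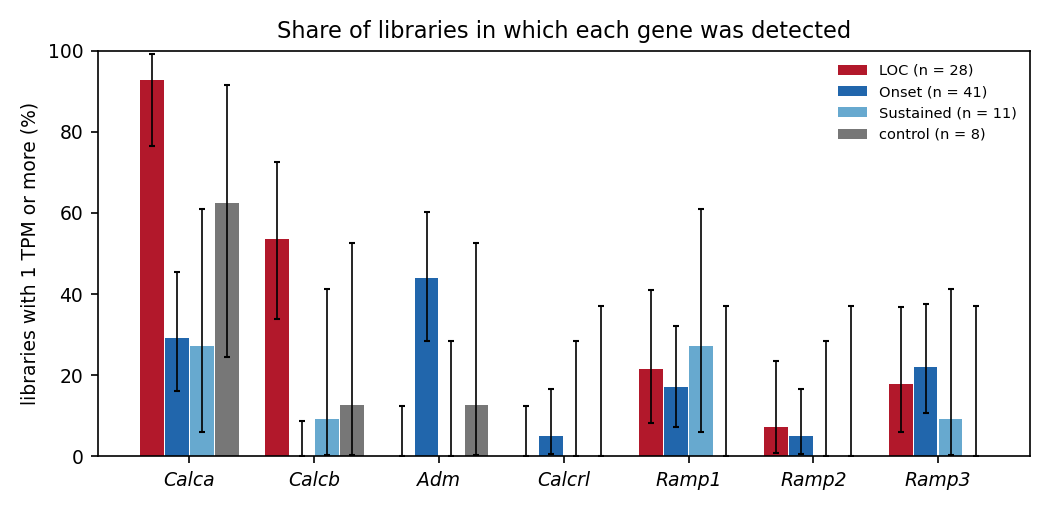
Share of libraries (%) with 1 TPM or more of each of the 7 genes, for LOCs, Onset and Sustained neurons and negative controls; lines give exact 95% binomial intervals, also for shares of 0. Calca stands at 92.9% of LOCs but also at 62.5% of the controls, Calcb at 53.6% of LOCs, Adm at 43.9% of Onset neurons, and Ramp1 and Ramp3 at similar shares in all 3 neuron classes.

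The receptor itself was detected in few libraries. Calcrl (chromosome 2, 84330626-84425411, minus strand) was detected in 2 of 80 neurons, both Onset, at 13 and 1 TPM. It was at 0 in all 28 LOCs (up to 10.7%), all 11 Sustained neurons (up to 27.3%) and all 8 controls (up to 37.5%). Calcrl did not pass the filter of 4 neurons. Its row, 17032, lies late in the table (running median 1.36 TPM), and the values are rounded to whole TPM. A low level may therefore lie below detection, but the part of rounding in these zeros was not tested.

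Ramp1 (chromosome 1, 91179822-91225196, plus strand) was detected in 6 of 28 LOCs (21.4%, 8.30 to 40.95%), 7 of 41 Onset neurons (17.1%, 7.15 to 32.1%) and 3 of 11 Sustained neurons (27.3%, 6.02 to 61.0%). The values were 21, 18, 5, 5, 4 and 1 TPM in LOCs, 9 to 35 TPM in Onset neurons and 13, 11 and 10 TPM in Sustained neurons. Ramp3 (chromosome 11, 6658521-6677475, plus strand) was detected in 5 of 28 LOCs (17.9%, 6.06 to 36.9%), 9 of 41 Onset neurons (21.95%, 10.6 to 37.6%) and 1 of 11 Sustained neurons (9.09%, 0.230 to 41.3%). Its values were 22, 21, 13, 5 and 1 TPM in LOCs, 3 to 36 TPM in Onset neurons and 49 TPM in the Sustained neuron. For both genes the ranges of the classes overlapped. The mean log2(TPM + 1) differed between LOCs and pLSOs by -0.14 for Ramp1 and -0.17 for Ramp3, close to the median of all genes. Without the 3 Onset neurons of differing names these values were -0.03 and -0.04.

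Ramp2 (chromosome 11, 101246028-101259546, plus strand) was listed in 4 of 80 neurons. It stood at 7386 and 1149 TPM in 2 Onset neurons and at 1165 and 11 TPM in 2 LOCs. Ramp2 lies in row 220 of the table, where the running median of detected genes was 431 TPM, compared with 4.29 TPM around Calca. These numbers are therefore not comparable with those of the other members. On the rescaled level described below, the highest Onset neuron had 605 for Ramp2, 404 for Ramp1 and 1496 for Ramp3. The mean of Onset neurons, 208 TPM, was 28.7 TPM without the highest neuron, and that of LOCs, 42 TPM, was 0.407 TPM. No Ramp gene was detected in the 8 controls, which allows up to 37.5%.

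**Figure D4:**
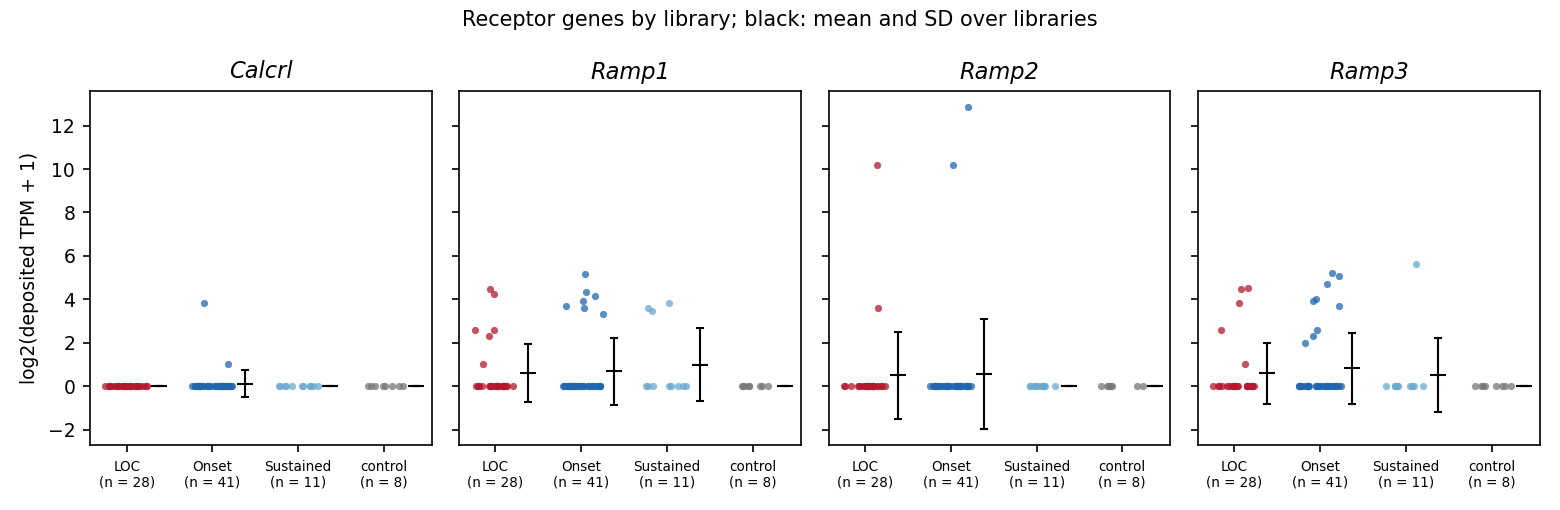
Values of Calcrl, Ramp1, Ramp2 and Ramp3 in each of 88 libraries, as log2(deposited TPM + 1), by class, with the mean and SD over libraries in black. Most neurons are at 0 for each gene, and the highest values of Ramp2 (7386, 1165 and 1149 TPM) stand in a part of the table where detected genes have high values.

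At least 1 Ramp gene was detected in 9 of 28 LOCs (32.1%, 15.9 to 52.4%), 16 of 41 Onset neurons (39.02%, 24.2 to 55.5%) and 4 of 11 Sustained neurons (36.4%, 10.9 to 69.2%). Of these 29 neurons, 24 held 1 Ramp gene, 4 held 2, and 1 LOC held all 3. All 9 LOCs with a Ramp gene also held Calca, but so did 26 of all 28 LOCs, so nothing can be read from this overlap. Both parts of a receptor were detected in 2 neurons only: 1 Onset neuron (cell_9) held Calcrl at 13 TPM with Ramp1 at 17 TPM, and another (cell_27) held Calcrl at 1 TPM with Ramp3 at 14 TPM. Neither of them held Adm or Calcb, and cell_27 held Calca at 1 TPM; with 2 neurons nothing can be read from this overlap.

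Since the deposited TPM depend on the place of a gene in the table, levels of different genes were compared only after each value was divided by the running median of its row and by the exon length of the gene and each library was brought back to the same total. If the deposited values already allow for the own length of each gene, length enters a second time here, which was not tested. On this rescaled level per length, Calca had a mean of 15612 ± 11988 in LOCs (SD, n = 28), and it ranked in place 3 of 12133 genes detected in any LOC. Calcb had 1223 ± 1531 in LOCs and ranked in place 66. Adm had 324 ± 541 in Onset neurons (n = 41). Of the receptor genes, Ramp3 had 85.0 in LOCs, 158 in Onset and 187 in Sustained neurons, Ramp1 had 26.0, 40.3 and 45.9, and Ramp2 had 3.53, 17.2 and 0. For each Ramp gene the SD exceeded the mean in each class that held it, so the order of these neighbours is within their spread. Calcrl had 6.67 in Onset neurons, from 2 neurons.

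Of the other genes of the calcitonin family, 3 were rare or not detected and 1 was detected about as often as Ramp1 and Ramp3. Calcr, the calcitonin receptor, and Iapp, the gene for amylin, were each detected in 1 of 80 neurons, an Onset neuron. Adm2, the gene for intermedin, was at 0 in all 80. Crcp, which encodes a receptor component protein that couples CGRP receptors to signalling, was detected in 5 of 28 LOCs, 9 of 41 Onset neurons and 3 of 11 Sustained neurons (17 of 80 neurons), and in no control.

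The 18 genes of signalling downstream of the receptor (the stimulatory G protein, adenylyl cyclases, protein kinase A, CREB factors and arrestins) all passed the filter. Over all genes, 1.07% were higher in LOCs by 2 or more and 1.41% were lower. Of the 18, 2 were higher in LOCs by 2 or more and none was lower, and the median difference was 0.06. These 2 were Prkacb, a catalytic subunit of protein kinase A, with a difference of 2.75 (18 of 28 LOCs and 27 of 52 pLSOs), and Gnas, with 2.06 (26 of 28 and 48 of 52). Gnas had a mean of 170 TPM in LOCs, 44.2 TPM in pLSOs and 99.6 TPM in the controls. On the rescaled level the differences were 1.95 for Prkacb and 1.93 for Gnas, just under 2, and 1 gene was past it, Crem (2.34, compared with 1.14 before rescaling). The next largest differences were those of Prkar2b, a regulatory subunit of protein kinase A (1.63, or 0.94 rescaled), and Adcy8, a calcium-stimulated adenylyl cyclase (-1.49; 1 of 28 LOCs and 14 of 52 pLSOs).

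Of 12 genes for peptide processing and dense-core vesicles, 2 were higher in LOCs by 2 or more and 1 was lower, with a median difference of 0.44. Over all genes, 1.07% were higher and 1.41% lower by as much. On the rescaled level, 4 of the 12 were higher by 2 or more and 1 was lower. Pam was detected in 26 of 28 LOCs with a mean of 277 TPM and in 34 of 52 pLSOs with 45.7 TPM (difference 3.44), and in the controls it had a mean of 4.63 TPM. Resp18, a protein of neuroendocrine secretory vesicles, differed by 2.96 (24 of 28 and 29 of 52). Chga, the gene for chromogranin A, went the other way by -3.33 (14 of 28 and 41 of 52), and Cadps, a priming factor of dense-core vesicles, differed by 1.85, or by 2.69 on the rescaled level. None of the 3 genes for peptidases (Ece1, Mme and Ide) differed by 2 or more: their differences were 0.66, 0.52 and -0.47.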

How the data were processed

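Single neurons and negative controls were sequenced after a modified Smart-seq2 protocol. The authors trimmed the reads (Trim Galore 0.4.2), aligned them to mm10 (STAR), marked duplicates (Picard 1.115) and counted primary alignments per gene (featureCounts). The deposited values are TPM rounded to whole numbers, treated here as a score. No counts were used, so the depth is unknown and limits precision in a way not quantified here. The values fall along the rows of the table (medians of detected genes from 162 TPM in the first 2500 rows to 2.13 TPM in rows 10001 to 12500) while exon lengths do not, so levels were compared between genes only after rescaling.

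Names, positions and lengths came from Gencode vM21 (GRCm38). Of the 8 libraries left out by the rule that defined the gene set, NC5, NC6, cell_36, cell_39 and cell_40 were rechecked against the study's supplement; cell_54, cell_78 and cell_85 were not. Groups are the firing-pattern labels. The genes, the lists and the rules were chosen with earlier results of these data known. Named are the 7 members, the 5 genes most like Calca or Calcb by Pearson's r, and from each list at most the 4 of largest difference with the other calcitonin family genes; vessel and microglia genes, the genes that share the Calcb pattern and those most like Adm were named outside this rule after their values were seen. Markers of vessels, astrocytes, oligodendrocytes and microglia were listed too. Tables were handled in pandas 2.3.3 under Python 3.11.15, intervals and correlations computed with SciPy 1.17.1, and plots drawn with matplotlib 3.10.9; the calculations were tested on simulated data. Alternatives were pseudocounts, detection limits, library choices and scalings.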

Additional observations from a re-analysis of the deposited data

Results flagged for a closer look

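In the 8 negative controls, 1 library stood far from the others for each of the 3 genes that had any value there. For Calca it was NC9 at 315 TPM (next 83 TPM), for Calcb the same control at 11 TPM with the other 7 at 0, and for Adm NC2 at 2 TPM with the other 7 at 0. Chance alone flags about 1 in 20 groups, and a group of zeros with 1 value above 0 is always flagged. NC9 also listed Ucn at 6 TPM, had Isl1, Chat and Fxyd6 at 0, and had 808 detected genes. Whether LOC material entered its pipette was not tested.

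Of the libraries left out of the comparisons, 5 held a gene of the family above the highest control. Cell_54, labelled Sustained, held Calca at 1887 TPM and Calcb at 131 TPM, with Ucn at 28 TPM. The LOCs cell_78 and cell_85 held Calca at 827 and 692 TPM and Calcb at 28 and 101 TPM, and cell_85 also held Ramp1 at 2 TPM. Cell_39, labelled Onset, held Adm at 98 TPM and Ramp1 at 10 TPM. NC6, labelled as a control, held Ramp1 at 51 TPM and had 3104 detected genes.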

How the results depend on the processing

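Of 134 values recomputed for 18 results under 11 alternatives, 16 moved by more than the tolerance, which was the SD over single neurons for a difference of means, the counting interval for a share and a factor of 1.5 for a count of genes. The SD over neurons is a wide tolerance, and the gene counts came out the same under the detection limits and without the filter, so the other values are not a sign of stability. No difference of 2 or more changed sign. The difference of Ramp2 between LOCs and pLSOs, 0.05, was -0.03 with a pseudocount of 10, -0.04 rescaled and -0.07 without the highest neurons. The difference of mean log2 values between LOCs and pLSOs was 10.92 for Calca with a pseudocount of 0.1, 5.98 with a pseudocount of 10 and 11.17 on the rescaled level; for Calcb it was 5.63 on the rescaled level and 1.81, below 2, with a pseudocount of 10; for Adm it was -3.13 rescaled, past 2, and -0.76 with a pseudocount of 10. Genes higher in LOCs by 2 or more numbered 272 with a pseudocount of 0.1 and 37 with 10, and genes lower in LOCs 398, 43 and, rescaled, 224. Genes higher in Sustained than in Onset neurons numbered 668 and 47, and genes lower 228, 15 and, rescaled, 127. The Adm difference between Sustained and Onset neurons ranged from -3.97 (rescaled) to -0.97 (pseudocount 10, below 2). The share of pLSOs with Calca was 13.5% at 2 TPM and 5.77% at 10 TPM. Rescaling moved the median of all genes to -0.14 for LOCs against pLSOs and to 0.13 for Sustained against Onset neurons. Without cell_31, cell_33 and cell_35, chosen after seeing the data, Ramp1 and Ramp3 had differences of -0.03 and -0.04, and Calca 8.59. No paired analysis was possible because each library is 1 neuron with a number of its own and no test was made. The depth is unknown, so a value of 0 may lie below detection, also in late rows such as that of Calcrl.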
